A study of Mus musculus with 8 samples.

Results

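Polycomb repressive complex 2 (PRC2) was followed through the transcripts of 10 of its subunits, *Ezh1*, *Ezh2*, *Eed*, *Suz12*, *Jarid2*, *Aebp2*, *Mtf2*, *Phf1*, *Phf19* and *Rbbp4*. They were chosen by name, with earlier results of these data known, and each symbol matched 1 of the 24849 rows of the gene tables. RNA of mouse embryonic stem cells (mESCs) of the MPI-II line, from strain 129S2/SvPas, was selected for polyA and sequenced in 4 conditions with 2 samples each. Wild type and *Pcgf5*-/- cells were taken at day 0, grown on feeder cells with serum, LIF and the 2i inhibitors, and after 6 days in N2B27, a serum-free medium that lets mESCs turn into neural cells. The *Pcgf5*-/- cells carried selection cassettes placed by TALENs at exon 2 and were grown from single colonies, and the sources used here do not say whether the 2 samples came from 1 clone. The 2 samples of a condition are called biological replicates without further detail, so the p-values measure the spread between these samples. The question was how the transcripts of the enzyme that writes H3K27me3, and of its partners, stood in cells without PCGF5, a subunit of a variant PRC1 complex, before and after neural induction.

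PRC2 methylates lysine 27 of histone H3 (H3K27me3), a mark of repressed developmental genes, and variant PRC1, to which PCGF5 belongs, places ubiquitin on histone H2A. EZH1 and EZH2 are the alternative catalytic subunits, SUZ12 is the scaffold, EED binds the methylated histone tail and RBBP4 binds histones. The Polycomb-like proteins MTF2, PHF1 and PHF19 form 1 family of accessory subunits, and JARID2 and AEBP2, which can recognise ubiquitinated H2A, define the other form of the complex.

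Expression was measured as FPKM (fragment counts divided by exon length and by library size), so levels of different genes are compared per length of transcript. Differences are given as log2 fold changes of FPKM + 1 and were tested with limma over 13214 genes with a mean over 1 FPKM in at least 1 condition, and all 10 subunits were among them. The count of fragments behind a value is not in the files, and the 95% interval that Cufflinks wrote for each value serves as its precision here. *Pcgf5* transcripts measured 5.18 and 3.63 FPKM in the wild type samples of day 0 against 1.28 and 1.84 FPKM in the knockout samples, and 9.16 and 5.06 against 0.669 and 0.457 FPKM at day 6. The knockout samples were below the wild type samples on both days, as their labels say. Of all tested genes 47.9% were apart at day 0 and 62.2% at day 6, in 1 direction or the other. By limma *Pcgf5* differed by -1.07 at day 0 (adjusted p = 0.105), which did not pass the test. At day 6 it differed by -2.33 (limma adjusted p = 0.00421) and passed. Cell identity was checked with marker lists. Summed over 9 genes of naive pluripotency, wild type had 1426 and 1455 FPKM at day 0 and 222.9 and 98.2 FPKM at day 6, against 1518 and 1476 and then 673.4 and 638.5 FPKM in *Pcgf5*-/- cells. Summed over 7 neural progenitor genes, the wild type samples had 275.6 and 224.6 FPKM at day 0 and the knockout samples 213.6 and 299.5 FPKM. At day 6 wild type reached 637.5 and 670.8 FPKM and the knockout 288.2 and 280.2 FPKM. *Vim* was the largest part of every sum. By limma 6 of the 7 genes rose over the 6 days in each genotype, where 34.2% (wild type) and 21.9% (knockout) of all tested genes rose. In wild type 0 fell and in the knockout 1, where 16.2% and 10.4% fell. The genotypes therefore differed in these marker sums at day 6, and in bulk RNA fewer cells of a type and less RNA per cell cannot be told apart.

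The catalytic subunits were present at unequal levels. *Ezh2* measured 57.9 and 50.7 FPKM in the wild type samples of day 0 against 73.1 and 67.4 FPKM in the knockout samples, and 94.7 and 92.3 against 88.6 and 98.3 FPKM at day 6. Its level was higher at day 6 in every sample, and the genotypes overlapped there. *Ezh1*, the homologue that is common in non-dividing cells, measured 7.22 and 7.05 FPKM in the wild type samples of day 0 against 10.3 and 8.69 FPKM in the knockout samples, and 4.56 and 4.27 against 9.30 and 10.5 FPKM at day 6. Wild type alone was low at day 6, and the 2 genotypes did not overlap on either day, as was so for 47.9% of all tested genes at day 0 and 62.2% at day 6.

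The other core subunits were among the more abundant transcripts. *Eed* measured 90.1 and 94.1 FPKM in the wild type samples of day 0 against 75.8 and 67.4 FPKM in the knockout samples, and 45.95 and 40.1 against 41.7 and 42.1 FPKM at day 6. It was low in all samples of day 6 whatever the genotype. *Suz12* measured 73.4 and 73.0 FPKM in the wild type samples of day 0 against 116.6 and 103.5 FPKM in the knockout samples, and 39.0 and 25.8 against 63.8 and 53.4 FPKM at day 6. The *Pcgf5*-/- samples were the higher ones on both days. *Rbbp4*, a histone chaperone shared with other chromatin complexes, stayed in a narrow range, from 61.0 FPKM in a *Pcgf5*-/- sample of day 6 to 82.0 FPKM in a wild type sample of day 0.

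Among the accessory subunits, *Mtf2* and *Jarid2* were abundant and *Phf1* and *Phf19* rare. *Mtf2*, whose product binds CpG-rich DNA, measured 48.1 and 62.1 FPKM in the wild type samples of day 0 against 54.6 and 48.7 FPKM in the knockout samples, and 29.0 and 20.4 against 38.3 and 38.95 FPKM at day 6. *Jarid2* measured 51.3 and 59.7 FPKM in the wild type samples of day 0 against 46.3 and 54.5 FPKM in the knockout samples, and 37.9 and 24.3 against 63.95 and 45.5 FPKM at day 6. For both genes the genotypes overlapped at day 0 and were apart at day 6, with wild type the lower. *Phf19* measured 0.901 and 0.396 FPKM in the wild type samples of day 0 against 0.823 and 0.614 FPKM in the knockout samples, and 1.74 and 2.09 against 4.09 and 5.99 FPKM at day 6. It was the rarest subunit except in the *Pcgf5*-/- samples of day 6. *Phf1* ranged from 1.54 to 4.0 FPKM and *Aebp2* from 15.3 to 25.4 FPKM over the 8 samples, with overlapping genotypes at day 6 for both.

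**Figure D1:**
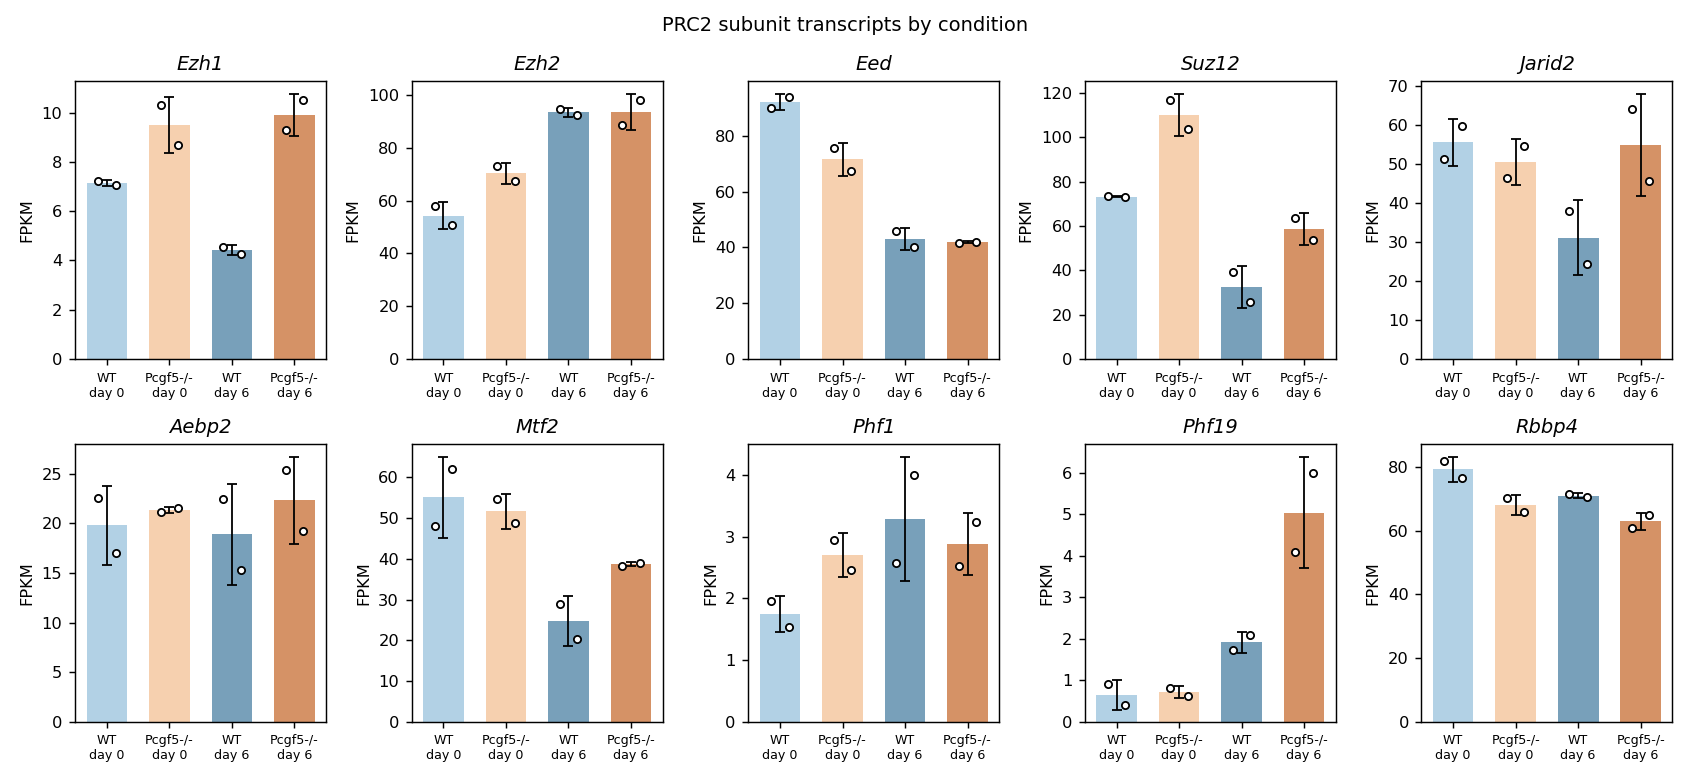
FPKM of each of the 10 PRC2 subunits (vertical axis, from 0, on its own scale in each panel) in the 4 conditions, with points for the 2 samples, bars for their mean and error bars for the SD. At day 6 *Ezh1*, *Suz12*, *Jarid2*, *Mtf2* and *Phf19* are higher in *Pcgf5*-/- cells than in wild type in both samples, while the points of *Ezh2* overlap.

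In wild type mESCs at day 0 the order of levels was *Eed*, *Rbbp4* and *Suz12*, which were apart from each other, then *Jarid2*, *Mtf2* and *Ezh2*, whose samples overlapped, and then *Aebp2*, *Ezh1*, *Phf1* and *Phf19*. At day 6 *Ezh2* was the most abundant subunit in both wild type and knockout, at 93.5 ± 1.65 FPKM in the former and 93.5 ± 6.84 FPKM in the latter (mean ± SD, n = 2). In wild type *Rbbp4* at 71.05 ± 0.838 FPKM and *Eed* at 43.05 ± 4.10 FPKM came next. Below them *Suz12*, *Jarid2* and *Mtf2* overlapped between 32.4 and 24.7 FPKM, and *Aebp2*, at 18.9 FPKM, overlapped only with *Mtf2*. In *Pcgf5*-/- cells of day 6 *Rbbp4*, *Suz12* and *Jarid2* overlapped at 62.9, 58.6 and 54.75 FPKM, and *Eed* came below them. *Suz12* held the first place in *Pcgf5*-/- cells of day 0, at 110.0 ± 9.31 FPKM, apart from *Eed*, *Ezh2* and *Rbbp4*, whose samples overlapped between 71.6 and 68.1 FPKM.

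The reference sequence upstream of 3 subunits is shown because *Suz12* and *Ezh1*, both on chromosome 11, were higher in *Pcgf5*-/- cells at day 6, and because *Eed* and *Suz12* fell together in both genotypes. Each run is the 250 bases before the outermost start of the gene in RefSeq (build GRCm38.p6), written 5′ to 3′ on the strand of the gene, and capitals mark E2F-type letters and CCAAT on either strand.
Suz12 (chr11:79992856-79993105, plus strand): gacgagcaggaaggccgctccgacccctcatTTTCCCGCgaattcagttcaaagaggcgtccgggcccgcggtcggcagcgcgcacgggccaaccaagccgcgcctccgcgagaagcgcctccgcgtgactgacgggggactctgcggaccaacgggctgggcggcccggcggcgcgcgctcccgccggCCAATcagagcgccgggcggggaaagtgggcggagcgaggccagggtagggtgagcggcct
Ezh1 (chr11:101226464-101226713, minus strand): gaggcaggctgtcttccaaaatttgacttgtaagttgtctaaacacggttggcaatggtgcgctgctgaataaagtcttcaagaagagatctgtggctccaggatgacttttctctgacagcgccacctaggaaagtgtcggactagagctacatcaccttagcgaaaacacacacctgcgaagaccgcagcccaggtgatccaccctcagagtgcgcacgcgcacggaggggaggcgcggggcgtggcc
Eed (chr7:89980977-89981226, minus strand): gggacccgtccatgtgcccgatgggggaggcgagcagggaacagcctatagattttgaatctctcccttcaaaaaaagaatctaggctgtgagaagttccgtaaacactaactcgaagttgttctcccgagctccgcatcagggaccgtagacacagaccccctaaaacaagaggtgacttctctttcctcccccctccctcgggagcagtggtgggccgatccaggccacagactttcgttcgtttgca
The *Suz12* run held 73.6% G and C and 37 CpG, against 55.2% and 14 CpG for *Ezh1* and 54.4% and 12 CpG for *Eed*, where the median of 19827 such windows was 50% and 4.0 CpG. The E2F-type letters searched were TTTCCCGC, TTTCGCGC, TTTGCCGC and TTTGGCGC, which 1.59% of the windows held, and CCAAT was in 34.4%. *Suz12* had 1 of each and *Ezh1* and *Eed* had neither. The GC box letters GGGCGG, present in 26.8% of windows on 1 strand or the other, occurred 3 times upstream of *Suz12* and not upstream of *Ezh1* or *Eed*. Windows were also at hand for *Jarid2*, *Phf1* and *Rbbp4*, none of which held the E2F-type letters. These are matches of letters, and no binding was measured here.

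The first comparison asked which PRC2 transcripts change when wild type mESCs are induced to a neural fate. Over the 6 days *Ezh2* and *Phf19* rose, while *Eed*, *Suz12*, *Mtf2*, *Jarid2* and *Ezh1* fell, so the subunits did not move as 1 block. *Phf1* also rose by the test, from 1.95 and 1.54 to 2.57 and 4.0 FPKM. In all, 3 subunits were higher and 5 lower, where 34.2% of the tested genes were higher and 16.2% lower (50.5% in either direction), and the median log2 fold change of the 10 subunits was -0.37 against 0.22 for all genes.

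The falls of the core were of similar size. *Suz12* changed by -1.18 on the log2 scale (SE 0.19, limma adjusted p = 0.00138) and *Eed* by -1.08 (SE 0.12, adjusted p = 0.000231). *Mtf2* changed by -1.14 (SE 0.19, adjusted p = 0.00158), and the decreases of *Jarid2* at -0.85 (SE 0.23, adjusted p = 0.0171) and *Ezh1* at -0.59 (SE 0.17, adjusted p = 0.0180) were smaller. *Ezh2* changed by 0.78 (SE 0.12, adjusted p = 0.00113), in the direction opposite to its core partners. *Phf19* changed by 0.84 (SE 0.24, adjusted p = 0.0182) from less than 1 FPKM, and *Phf1* by 0.63 (SE 0.23, adjusted p = 0.0478). *Rbbp4* had -0.15 (95% interval -0.41 to 0.10) and *Aebp2* -0.08 (95% interval -0.59 to 0.44), and neither passed the test. *Rbbp4* passed as lower under median-of-ratios scaling, at -0.41 (adjusted p = 0.017), and with the chromosome median subtracted, at -0.34 (adjusted p = 0.0324). The call of *Phf1* was lost in most alternatives, and those of *Jarid2* and *Phf19* were lost without replicate 2 of day 0 or replicate 2 of day 6 and that of *Ezh1* without any 1 of the 4 wild type samples. *Phf19* also lost its call after quantile normalization, at 0.41 (adjusted p = 0.196), and with the chromosome median subtracted, at 0.56 (adjusted p = 0.0843).

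The second comparison was the same interval in *Pcgf5*-/- cells. *Eed* and *Suz12* fell and *Ezh2* and *Phf19* rose, as 2 subunits higher and 2 lower, where 21.9% of the tested genes were higher and 10.4% lower (32.3% in either direction). *Suz12* changed by -0.90 (SE 0.19, limma adjusted p = 0.00954) and *Eed* by -0.76 (SE 0.12, adjusted p = 0.00306). *Phf19* changed by 1.80 (SE 0.24, adjusted p = 0.00133), the largest change of a subunit in any of the comparisons, and *Ezh2* by 0.41 (SE 0.12, adjusted p = 0.0349). *Mtf2* had -0.41 (adjusted p = 0.133), *Jarid2* 0.10 (adjusted p = 0.769) and *Ezh1* 0.06 (adjusted p = 0.819), and none of them passed the test. *Mtf2* passed as lower under median-of-ratios scaling, at -0.57 (adjusted p = 0.0498). For *Jarid2* the 95% interval ran from -0.44 to 0.64 and for *Ezh1* from -0.32 to 0.44. The median of the subunits was 0.05 against 0.13 for all genes. The call of *Ezh2* did not hold under median-of-ratios scaling, where it had 0.24 (adjusted p = 0.175), or without any 1 of the 4 *Pcgf5*-/- samples, with 0.33 to 0.48. That of *Suz12* was lost without replicate 1 of day 0, at -0.81 (adjusted p = 0.063), and without replicate 2 of day 6, at -0.77 (adjusted p = 0.064).

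In undifferentiated cells the comparison asked whether PRC2 transcripts already differed between the genotypes. None of the 10 subunits passed the test with limma, where 0.333% of all tested genes did (0.288% higher and 0.0454% lower), and 3 had an unadjusted p under 0.05, where 17.4% of all tested genes had one. These 3 were *Suz12* at 0.58 (SE 0.19, adjusted p = 0.170), *Ezh2* at 0.37 (SE 0.12, adjusted p = 0.169) and *Eed* at -0.36 (SE 0.12, adjusted p = 0.180). *Ezh1* had 0.36 (95% interval -0.02 to 0.74) and *Phf1* 0.43 (95% interval -0.09 to 0.95). The other subunits lay between -0.22 for *Rbbp4* and 0.12 for *Aebp2*, and the median of the subunits, 0.10, was near the 0.11 of all genes. The targeted gene *Pcgf5* did not pass at day 0 either, at -1.07 (limma adjusted p = 0.105). The test of day 0 can therefore miss differences of that size.

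**Figure D2:**
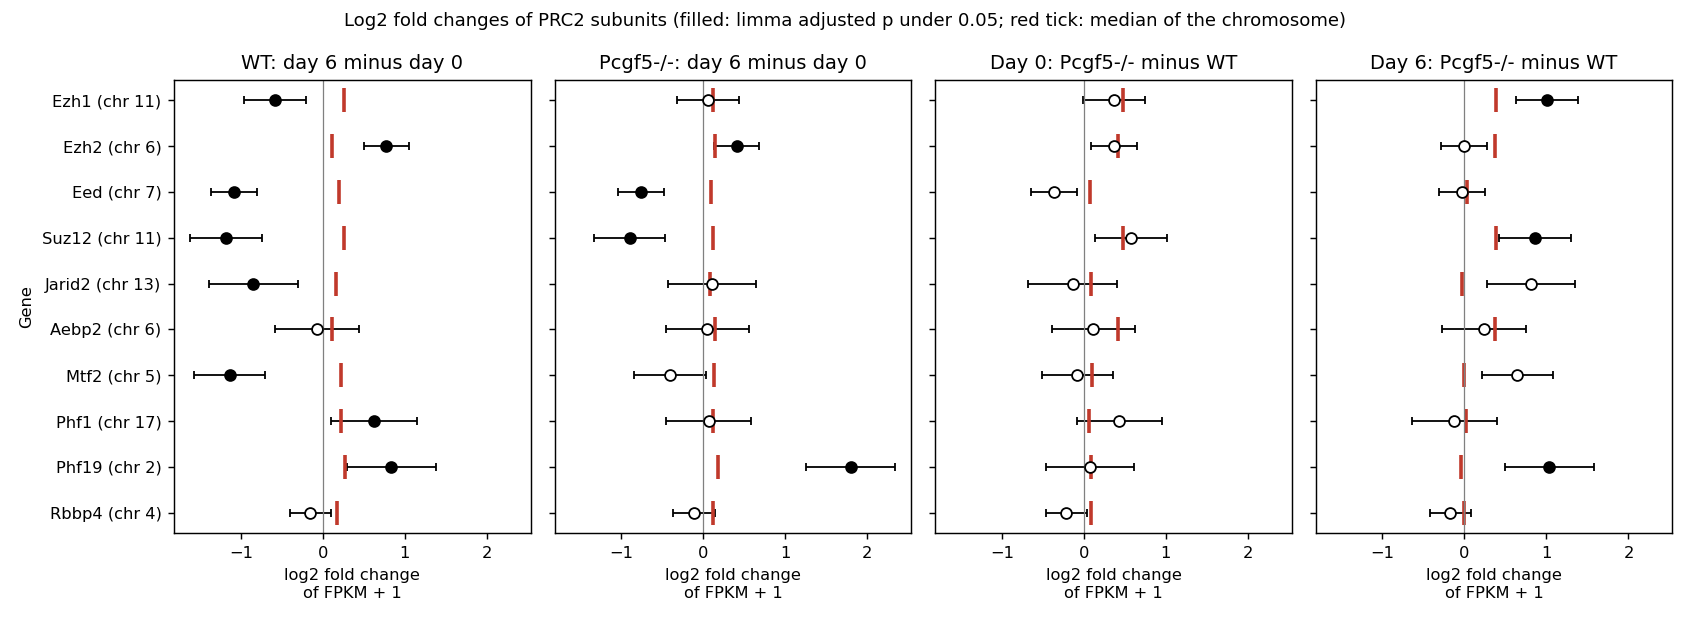
Log2 fold changes of FPKM + 1 (horizontal axis) of the 10 subunits in the 4 comparisons, with 95% intervals. Filled points passed limma's adjusted p of 0.05 and red ticks mark the median of all tested genes on the same chromosome, which is 0.48 on chromosome 11 and 0.41 on chromosome 6 for the genotypes at day 0, and 0.38 and 0.37 at day 6.

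At day 6 *Ezh1*, *Suz12* and *Phf19* were higher in *Pcgf5*-/- cells than in wild type, and no subunit was lower. Of all tested genes 9.57% were higher and 7.05% lower (16.6% in either direction), and the median log2 fold change was 0.44 over the subunits and 0.02 over all genes. *Phf19* differed by 1.04 (SE 0.24, limma adjusted p = 0.0233), *Ezh1* by 1.01 (SE 0.17, adjusted p = 0.00915) and *Suz12* by 0.86 (SE 0.19, adjusted p = 0.0220). *Jarid2* at 0.81 (SE 0.23, adjusted p = 0.0501) and *Mtf2* at 0.65 (SE 0.19, adjusted p = 0.0518) missed the threshold narrowly, and 5 subunits in all had an unadjusted p under 0.05, where 32.7% of all tested genes had one. In each of these 5 both *Pcgf5*-/- samples were above both wild type samples, which adds little to a low p from 2 samples a group. *Rbbp4* was apart too, with wild type the higher, and the samples of the other subunits overlapped. Of all tested genes 62.2% were apart in 1 direction or the other.

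*Ezh2*, *Eed*, *Aebp2*, *Phf1* and *Rbbp4* did not pass the test at day 6. For *Ezh2* the difference was -0.00 with a 95% interval from -0.28 to 0.28, and for *Eed* it was -0.03 with an interval from -0.31 to 0.25. *Rbbp4* had -0.17 (95% interval -0.43 to 0.08). The intervals of *Aebp2*, at 0.24 from -0.27 to 0.75, and of *Phf1*, at -0.13 from -0.65 to 0.39, were wider and leave room for differences of the size seen for *Mtf2* in *Aebp2*.

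The calls of day 6 rested on few samples. Without replicate 1 of *Pcgf5*-/- day 6 or without replicate 2 of wild type day 6 no subunit kept its call. Each of these fits had 1 sample in a group, and calls became far fewer over all tested genes too. *Ezh1* kept differences of 1.09 and 0.97 in these fits. *Suz12* had 0.73 (adjusted p = 0.122) and 0.57 (adjusted p = 0.102) in these fits and 0.98 (adjusted p = 0.0539) without replicate 2 of *Pcgf5*-/- day 6. *Phf19* lost its call without any 1 of the 4 samples of day 6, with differences from 0.81 to 1.27. Without an FPKM minimum *Suz12* (adjusted p = 0.055) and *Phf19* (adjusted p = 0.0537) also missed the threshold, as did *Phf19* with a pseudocount of 0.1 (adjusted p = 0.0647) and *Suz12* in a fit of the compared groups only (adjusted p = 0.0643). Without replicate 1 of wild type day 6 *Jarid2* had 1.12 and *Mtf2* 0.89. Both passed there beside *Ezh1* and *Suz12*, which kept their calls, while *Phf19* did not.

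The 2 wild type samples of day 6 stood apart from each other in several subunits. Replicate 2 was below replicate 1 by 0.62 on the log2 scale in *Jarid2*, by 0.58 in *Suz12*, by 0.53 in *Aebp2* and by 0.49 in *Mtf2*. In *Phf1* it was above replicate 1, by 0.48. Between the *Pcgf5*-/- samples of day 6, replicate 2 minus replicate 1 was -0.48 in *Jarid2*, -0.25 in *Suz12*, -0.38 in *Aebp2* and 0.02 in *Mtf2*. Replicate 2 of wild type day 6 had the lower sum of naive pluripotency transcripts, 98.2 against 222.9 FPKM. Its sums of neural progenitor and proliferation transcripts, 670.8 and 932.6 FPKM, were near the 637.5 and 950.3 FPKM of the other sample. Its sum over 5 extraembryonic endoderm genes was 7.81 FPKM against 48.3 FPKM in replicate 1, its neuron sum 271.2 against 382.7 FPKM and its mesendoderm sum 3.00 against 7.06 FPKM. In the *Pcgf5*-/- samples of day 6 the extraembryonic endoderm sum was 15.5 and 7.72 FPKM. The part of these other cell states in the subunit levels was not tested.

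Whether the genotype difference changed between the days was tested as the difference of the differences. No subunit passed with limma, where 3.09% of all tested genes did (1.34% with a higher and 1.75% with a lower value), and 4 had an unadjusted p under 0.05, where 23.2% of all tested genes had one. These were *Phf19* at 0.96 (SE 0.33, adjusted p = 0.140), *Jarid2* at 0.95 (SE 0.33, adjusted p = 0.144), *Mtf2* at 0.73 (SE 0.27, adjusted p = 0.159) and *Ezh1* at 0.64 (SE 0.23, adjusted p = 0.155). *Suz12* had 0.28 (SE 0.27, adjusted p = 0.571), with genotype differences of 0.58 at day 0, which was not called, and 0.86 at day 6. The fall of *Ezh1*, *Jarid2* and *Mtf2* in wild type, which was not called in *Pcgf5*-/- cells, is thus not shown to differ between the genotypes in this fit. The methods of the study speak of paired knockout and wild type samples. In a fit that pairs them by replicate number within each day *Jarid2* passed for this change, at 0.95 (limma adjusted p = 0.0246). It also passed between the genotypes at day 6, at 0.81 (adjusted p = 0.00712). Calls rose over all tested genes in that fit. For this change 557 were higher and 610 lower, against 177 and 231 without pairing. At day 6 1887 were higher and 1348 lower, against 1265 and 932. These comparisons share samples with each other, and their values are not independent.

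Some subunits lie on chromosomes whose genes differed between the genotypes as a whole. In *Pcgf5*-/- cells the median log2 difference from wild type was 0.48 at day 0 and 0.38 at day 6 over the 1086 tested genes of chromosome 11, and 0.41 and 0.37 over the 643 of chromosome 6, while the medians of the other 18 chromosomes ranged from 0.04 to 0.12 at day 0 and from -0.06 to 0.03 at day 6. *Suz12* (chr11:79806608-79847625 in NCBIM37, the build of the files) and *Ezh1* (chr11:101052429-101087777) are on chromosome 11, and *Ezh2* (chr6:47480273-47545029) and *Aebp2* (chr6:140571184-140626993) on chromosome 6. At day 0 *Suz12* lay 0.10 above the median of its chromosome on the log2 scale, and *Ezh2* lay 0.04, *Ezh1* 0.12 and *Aebp2* 0.29 below theirs.

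At day 6 *Ezh1* was 0.63 above the median of chromosome 11, higher than 92.3% of its genes, and *Suz12* was 0.48 above it, higher than 89.6%. *Ezh2* was 0.37 below the median of chromosome 6, with 21.9% of its genes lower still. When every gene was set against the median of its chromosome in each sample, *Suz12* had 0.46 (adjusted p = 0.138) and lost its call, while *Ezh1* and *Phf19* kept theirs and *Jarid2* passed at 0.82 (adjusted p = 0.0498). *Phf19* (chr2:34749275-34769496), *Jarid2* (chr13:44826143-45017012) and *Mtf2* (chr5:108494693-108538238) are on chromosomes whose medians at day 6 were from -0.04 to -0.01. The copy number of the chromosomes was not measured here.

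The balance within pairs of alternative subunits is described without a test. *Ezh1* made up 11.1% and 12.2% of the summed FPKM of *Ezh1* and *Ezh2* in the wild type samples of day 0 against 12.35% and 11.4% in the knockout samples. At day 6 it made up 4.60% and 4.42% against 9.50% and 9.65%, so that the share fell in wild type and stayed nearer to its level of day 0 in the knockout. At day 6 both catalytic transcripts summed to 97.9 ± 1.86 FPKM in the wild type samples against 103.4 ± 7.69 FPKM in the knockout samples (mean ± SD, n = 2), so the sums differed by less than the larger SD.

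Among the Polycomb-like subunits *Mtf2* dominated, with 95.7 ± 1.82% (wild type) and 93.8 ± 0.375% (knockout) of their summed FPKM at day 0, and 82.0 ± 7.12% and 83.05 ± 3.13% at day 6. At day 6 *Phf19* made up 5.21% and 7.90% of the sum in the wild type samples against 9.11% and 12.4% in the knockout samples, from under 2% in every sample of day 0. The Polycomb-like sum over the sum of *Jarid2* and *Aebp2*, the subunits of the other form of the complex, was 0.762 ± 0.103 and 0.773 ± 0.132 at day 0 and 0.610 ± 0.0833 and 0.623 ± 0.171 at day 6 in wild type and *Pcgf5*-/- cells. The genotypes overlapped in this ratio on both days.

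The core did not keep its transcript ratios. *Ezh2* over *Suz12* went from 0.789 and 0.695 at day 0 to 2.43 and 3.57 at day 6 in wild type, and from 0.627 and 0.652 to 1.39 and 1.84 in *Pcgf5*-/- cells, and the genotypes were apart on both days. *Ezh2* over *Eed* went from 0.5905 ± 0.0735 to 2.18 ± 0.169 in wild type and from 0.983 ± 0.0258 to 2.23 ± 0.146 in *Pcgf5*-/- cells, and the genotypes overlapped at day 6. Protein levels were not part of these data.

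**Figure D3:**
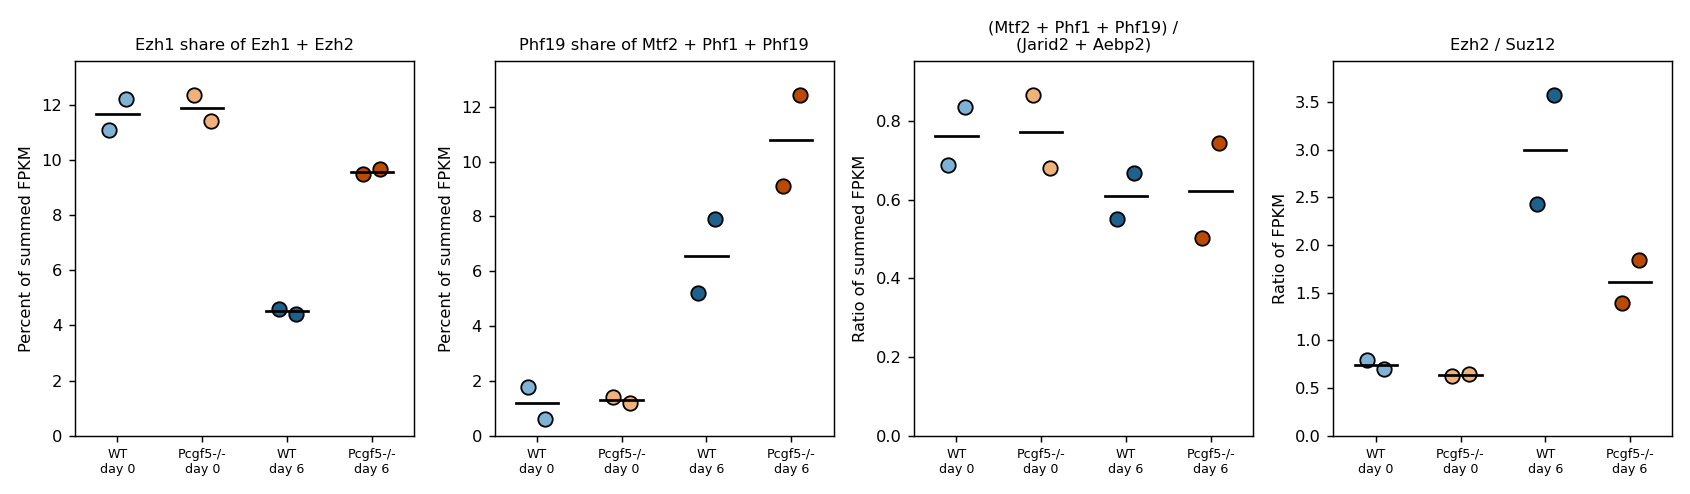
Shares and ratios of FPKM between PRC2 subunits (vertical axes, from 0) in the 4 conditions, with a point for each sample and a line for the mean. The share of *Ezh1* at day 6 averages 4.51% for wild type and 9.575% for the knockout, and the ratio of the Polycomb-like subunits to *Jarid2* and *Aebp2* overlaps between the genotypes.

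The genes whose levels followed *Ezh1* and *Ezh2* most closely were found by Pearson correlation of log2 values over the 8 samples, which share 4 conditions, as a description. For *Ezh1* they were *Skap2* (r = 0.984), *Inpp5k* (r = 0.980), *Zrsr1* (r = 0.976), *Nfu1* (r = 0.972) and *Npm1* (r = 0.970), which lie on chromosomes 6 and 11 without exception. For *Ezh2* they were *Ube2h* (r = 0.992) and *Igf2bp3* (r = 0.991) on chromosome 6, *Amz2* (r = 0.989) on chromosome 11, *Tstd2* (r = 0.988) on chromosome 4 and *Reep2* (r = 0.986) on chromosome 18.

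Counting precision differed between the subunits. The half-width of the Cufflinks interval was from 2.67% to 6.44% of the value for *Suz12*, *Jarid2*, *Ezh2*, *Rbbp4*, *Mtf2* and *Aebp2* and from 9.83% to 12.9% for *Ezh1*. It reached 27.4% for *Phf1* and 38.5% for *Phf19*, the 2 rarest subunits. For *Eed* the deposited FPKM lay outside its own interval in 5 of the 8 samples, so that interval is no guide to its precision. Genes annotated on the opposite strand overlap several subunits, among them *Tmed5* over 2854 bases of *Mtf2* and *Sync* over 1460 bases of *Rbbp4*, with mean levels of 10.5 and 0.802 FPKM. The use of strand in the counting is not stated, so reads in these overlaps cannot be told apart.

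Markers of growth and of other cells were set beside the subunits. Over 10 proliferation genes the summed FPKM at day 6 was 950.3 and 932.6 in the wild type samples against 1103 and 1090 in the knockout samples, and from 1065 to 1224 in the samples of day 0. At day 6 1 of these 10 genes, *Mcm2*, a replication helicase subunit on chromosome 6, was higher in *Pcgf5*-/- cells, by 0.68 (limma adjusted p = 0.0116). In wild type 4 of the 10 fell and 0 rose over the 6 days, where 16.2% of all tested genes fell and 34.2% rose. In *Pcgf5*-/- cells 2 rose and 0 fell, where 21.9% rose and 10.4% fell. Of the 9 naive pluripotency genes 8 were higher in *Pcgf5*-/- cells at day 6, and of the 7 neural progenitor genes 7 were lower. Of the 6 neuron genes 4 were lower. Of all tested genes 9.57% were higher and 7.05% lower in this comparison. None of the 7 feeder fibroblast, 5 mesendoderm and 3 extraembryonic endoderm genes tested passed the test between the genotypes on either day. Of all tested genes 0.333% passed at day 0 and 16.6% at day 6. At an unadjusted p under 0.05 were 2 and 1 and 0 of them at day 6, where 32.7% of all tested genes were. The feeder fibroblast sum was from 154.9 to 549.4 FPKM at day 0 and from 10.9 to 32.5 FPKM at day 6, so RNA of the feeder cells was present mainly at day 0. The part of these cell states and of the feeders in the subunit values was not tested.

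Other proteins that join PRC2 were taken from a list of 7, of which 6 could be tested. In wild type *Lcorl* rose (log2 fold change 0.99, limma adjusted p = 0.00365) and *Epop* fell over the 6 days, where 34.2% of all tested genes rose and 16.2% fell. In *Pcgf5*-/- cells *Ezhip* rose (0.84, adjusted p = 0.03) and *Epop* fell, where 21.9% rose and 10.4% fell. Between the genotypes at day 6 1 was higher and 1 lower in *Pcgf5*-/- cells, where 9.57% and 7.05% of all tested genes were. The higher one was *Ezhip*, an inhibitor of the EZH2 active site, with 0.721 and 0.630 FPKM in the wild type samples of day 6 against 4.51 and 3.11 FPKM in the knockout samples, a difference of 1.51 (SE 0.24, limma adjusted p = 0.0088). The lower one was *Lcorl*, which encodes a partner of the Polycomb-like complexes, with 8.02 and 6.26 against 3.85 and 3.35 FPKM and a difference of -0.82 (SE 0.20, adjusted p = 0.0275). Each had both samples of 1 genotype above both of the other, as had 62.2% of all tested genes. *Ezhip* was also apart at day 0, where 47.9% of all tested genes were, with 0.846 and 0.306 against 1.41 and 1.93 FPKM (difference 0.77, adjusted p = 0.15). The change of the difference between the days did not pass (adjusted p = 0.242 for *Ezhip* and 0.215 for *Lcorl*).

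*Epop*, on chromosome 11, encodes a partner of the Polycomb-like complexes in mESCs. It measured 55.8 and 57.7 FPKM in the wild type samples of day 0 against 94.85 and 162.9 FPKM in the knockout samples, and 31.6 and 27.01 against 46.4 and 38.1 FPKM at day 6. It fell over the 6 days in wild type, by 0.94 on the log2 scale (adjusted p = 0.0110), and in *Pcgf5*-/- cells, by 1.54 (adjusted p = 0.00247), and the genotype difference of 1.12 at day 0 did not pass the test (adjusted p = 0.0711). *Rbbp7*, the close homologue of *Rbbp4*, was between 112.8 and 135.9 FPKM in all 8 samples and passed in no comparison, with -0.01 (adjusted p = 0.960) between the genotypes at day 6.

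**Figure D4:**
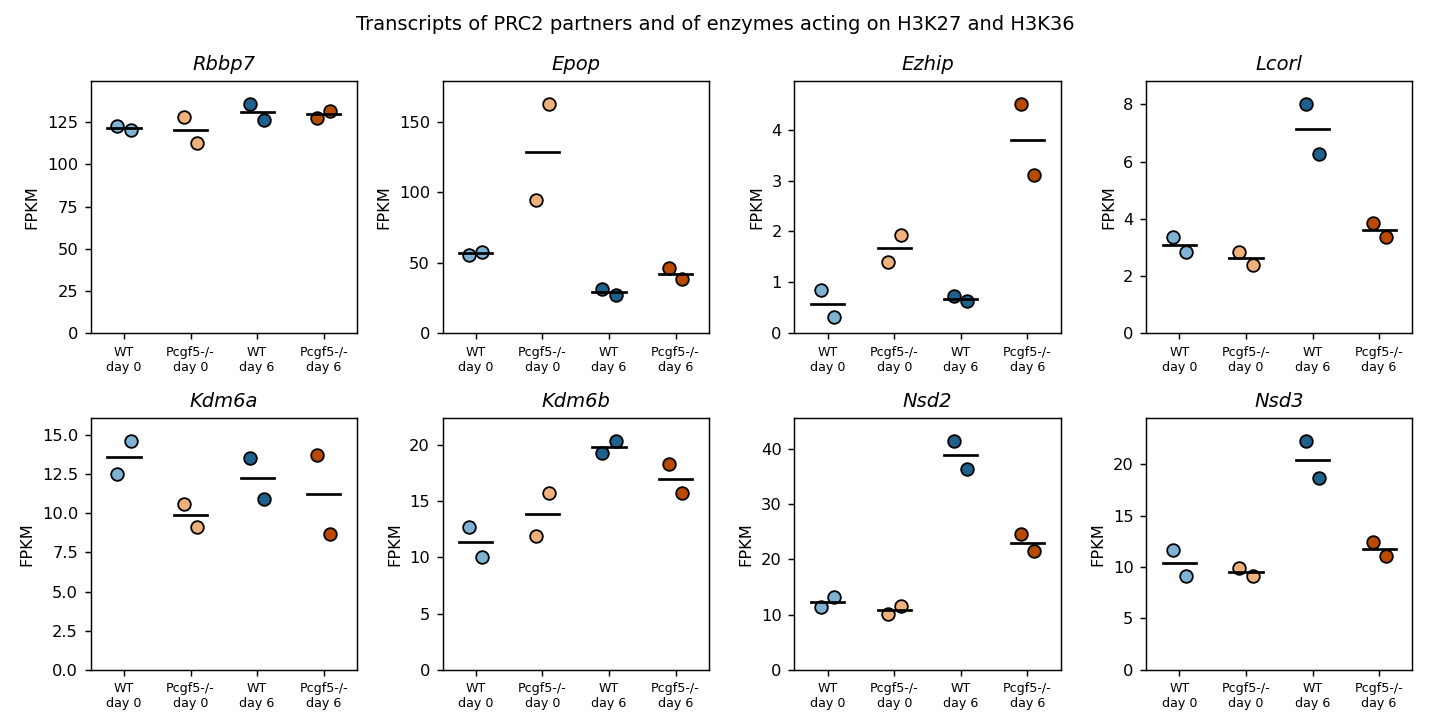
FPKM (vertical axes, from 0, on its own scale in each panel) of *Rbbp7*, *Epop*, *Ezhip* and *Lcorl*, of the H3K27 demethylase genes *Kdm6a* and *Kdm6b* and of the H3K36 methyltransferase genes *Nsd2* and *Nsd3* in the 4 conditions, with a point for each sample and a line for the mean. At day 6 *Ezhip* is higher and *Lcorl*, *Nsd2* and *Nsd3* are lower in both *Pcgf5*-/- samples than in both wild type samples.

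Enzymes that work against PRC2 were taken as 4 genes for demethylases and acetylases of H3K27 and 5 for methyltransferases of H3K36, a mark that hinders PRC2. None of the 4 passed between the genotypes on either day, nor at an unadjusted p under 0.05. Of all tested genes 0.333% passed at day 0 and 16.6% at day 6, and 17.4% and 32.7% had an unadjusted p under 0.05. The H3K27 demethylase gene *Kdm6b* rose in wild type, from 12.7 and 10.1 to 19.3 and 20.4 FPKM (log2 fold change 0.76, limma adjusted p = 0.00899), and had 0.29 in *Pcgf5*-/- cells (adjusted p = 0.260), with a difference between these changes of -0.47 (adjusted p = 0.308). *Kdm6a* was between 8.69 and 14.65 FPKM in the 8 samples and passed in no comparison. Of the 5 H3K36 genes 2 rose in wild type, where 34.2% of all tested genes rose. In *Pcgf5*-/- cells 1 of them, *Nsd2*, rose over the 6 days, by 1.03 (adjusted p = 0.00231), where 21.9% rose. At day 6 2 were lower in *Pcgf5*-/- cells, where 7.05% were. The lower ones were *Nsd2*, with 41.5 and 36.4 against 24.5 and 21.45 FPKM (difference -0.74, adjusted p = 0.0179), and *Nsd3*, with 22.3 and 18.6 against 12.4 and 11.1 FPKM (difference -0.75, adjusted p = 0.0245). The change of either difference between the days did not pass (adjusted p = 0.171 and 0.172).

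PRC1, the other Polycomb complex, was set beside PRC2 as 21 subunit genes without *Pcgf5*. At day 6 3 of them were higher and 3 lower in *Pcgf5*-/- cells, with a median of -0.16, where 9.57% of all tested genes were higher and 7.05% lower. The higher gene with the smallest p was *Phc1*, on chromosome 6, a polyhomeotic subunit of canonical PRC1, at 1.51 (limma adjusted p = 0.00803), and the lower one was *Bmi1*, which encodes a PCGF paralogue, at -0.95 (adjusted p = 0.0156).

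Genes known from textbooks as PRC2 targets in mESCs were counted last, as 26 genes of which 20 could be tested. Between the genotypes 0 passed with limma at day 0, where 0.333% of all tested genes did. At an unadjusted p under 0.05 were 2, where 17.4% of all tested genes were, and the median was 0.11. At day 6 none was higher and 7 were lower in *Pcgf5*-/- cells, with a median of -0.76, where 9.57% of all tested genes were higher and 7.05% lower. In wild type 12 rose and 1 fell over the 6 days, with a median of 1.32, and in *Pcgf5*-/- cells 10 rose and 1 fell, with a median of 0.87. Of all tested genes 34.2% rose and 16.2% fell in wild type, and 21.9% and 10.4% in *Pcgf5*-/- cells. The 3 lower genes with the smallest p at day 6 were *Pax3*, a dorsal neural tube and neural crest factor, at -2.54 (adjusted p = 0.00377), *Pax7*, its paralogue, at -1.43 (adjusted p = 0.00886), and *Pax6*, a neural progenitor factor, at -1.16 (adjusted p = 0.0114). *Pax6* also belongs to the neural progenitor markers, and several targets are neural genes, so this list is not independent of the marker lists. H3K27me3 itself was not measured in these samples.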

How the data were processed

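The authors trimmed adapters and bases of low quality, dropped short reads, exact duplicates and any read rich in undetermined bases. The paired reads that were left were aligned to mm9. TopHat2 2.0.4 and Cufflinks 2.1.1 are named in the submitters' processing notes. Each deposited file lists FPKM values of 1 sample, computed by the authors with Cufflinks and scaled to the library and to transcript length. The gene annotation behind them is not given in the sources used here. Removing duplicates lowers the values of abundant transcripts, and the fragments behind a value are not in the files.

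Samples were grouped by the genotype, day and replicate number of their labels. FPKM values were analysed as log2(FPKM + 1), which makes the fold changes of rare transcripts smaller than the ratio of their FPKM. Genes with a mean over 1 FPKM in at least 1 condition were tested with limma 3.58.1 in R 4.3.3, in 1 fit of all 8 samples with 1 mean per condition, a variance trend and without a replicate block. Benjamini-Hochberg adjustment of the p-values was made over the 13214 genes, with a threshold of 0.05, and the tests were two-sided. The script was tested on simulated data with known changes.

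The subunits, gene lists, motifs and tests were chosen with earlier results of these data known. The text names all subunits, and from each further list the genes with the smallest p-values, with *Rbbp7*, *Epop*, *Kdm6a* and *Kdm6b* always given. Files list *Epop* as E130012A19Rik, *Ezhip* as AU022751, *Nsd2* as Whsc1 and *Nsd3* as Whsc1l1. Promoter sequences come from RefSeq (GRCm38.p6), and windows that lay inside the gene were not used, which left 6 of the 10 subunits. Overlapping genes come from GENCODE on NCBIM37. Alternatives were other pseudocounts (0.1 and 0.01), other FPKM minimums (none and 5), other scalings, a fit without the trend, a fit of the compared groups only, replicate blocks, a 1.5-fold rule without a test and leaving out each sample in turn.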

Additional observations from a re-analysis of the deposited data

How the results depend on the processing

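Across the alternatives, 860 values of single subunits kept their direction and side of the threshold, 54 lost a call, 14 gained one and 47 changed sign, each of the last between values without a call. The changes of *Ezh2*, *Eed*, *Suz12* and *Mtf2* in wild type over the 6 days kept their call in all of them. The counts above include the changes over the 6 days in the fit with a replicate block for each day, which compare replicate 1 levels only. Causes of the changes below were not tested. Another scaling moved the median log2 fold change of all genes by -0.21 (quantile) and -0.22 (median of ratios) in wild type over the 6 days, by -0.10 and -0.15 in *Pcgf5*-/- cells and by -0.12 and -0.11 between the genotypes at day 0.

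Of the subunits higher in *Pcgf5*-/- cells at day 6, 3 in the report, 1 remained without an FPKM minimum and 5 passed the 1.5-fold rule, which has no test and at day 0 gave 2. The 3 subunits higher in wild type over the 6 days became 1 after quantile normalization and 1 with the chromosome median subtracted. The 2 higher in *Pcgf5*-/- cells over the 6 days became 1 with median-of-ratios scaling, 1 with the chromosome median subtracted, 1 without the variance trend, 1 in a fit of the compared groups only and 1 by the 1.5-fold rule.

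The labels number the replicates, but the differences between replicates 1 and 2 correlated across genes at 0.102 between the genotypes at day 0 and 0.387 at day 6, and at -0.042 and -0.0335 between the days, with 2 pairs each. The methods of the study speak of paired knockout and wild type samples without saying what they shared, and the samples were not taken as paired in the report. With 1 replicate block in the fit, 2 subunits were higher and 5 lower in wild type over the 6 days, 2 and 2 in *Pcgf5*-/- cells, 3 and 0 between the genotypes at day 6 and none at day 0. With a replicate block for each day 4 were higher in *Pcgf5*-/- cells at day 6. For the change of the genotype difference 1 passed, *Jarid2* at 0.95 (limma adjusted p = 0.0246), where 0 did without it. This block also gave more calls over all tested genes, with 1887 higher and 1348 lower at day 6. It gave *Jarid2* a call in *Pcgf5*-/- cells over the 6 days (0.49, adjusted p = 0.0279) and ended those of *Ezh2* there (adjusted p = 0.11) and of *Phf1* (adjusted p = 0.184) and *Phf19* (adjusted p = 0.0853) in wild type. This block turned *Aebp2* to 0.062 in wild type, and *Ezh1* to -0.027 and *Phf1* to -0.22 in *Pcgf5*-/- cells over the 6 days.

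In *Pcgf5*-/- cells over the 6 days quantile normalization turned *Ezh1* to -0.11, *Aebp2* to -0.0033 and *Phf1* to -0.23, median-of-ratios scaling turned *Ezh1* to -0.096, *Jarid2* to -0.063, *Aebp2* to -0.11 and *Phf1* to -0.0575, and the chromosome median turned *Ezh1* to -0.078, *Aebp2* to -0.084 and *Phf1* to -0.053. Between the genotypes at day 0 quantile normalization turned *Aebp2* to -0.0058 and *Phf19* to -0.069, median-of-ratios scaling turned *Aebp2* to -0.035, and the chromosome median turned *Ezh1* to -0.15, *Ezh2* to -0.071, *Aebp2* to -0.32 and *Phf19* to -0.022. At day 6 the chromosome median turned *Aebp2* to -0.16.

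Leaving out each sample in turn gave 1 to 3 subunits higher and 3 to 5 lower in wild type over the 6 days, 1 to 2 higher and 1 to 2 lower in *Pcgf5*-/- cells, and 0 to 4 higher between the genotypes at day 6. Signs changed in these ranges of log2 values: in wild type, *Aebp2* from -0.34 to 0.19. In *Pcgf5*-/- cells over the 6 days, *Ezh1* ranged from -0.055 to 0.17, *Jarid2* from -0.14 to 0.34, *Aebp2* from -0.14 to 0.24 and *Phf1* from -0.067 to 0.20. Between the genotypes at day 0 *Aebp2* ranged from -0.078 to 0.31, *Mtf2* from -0.26 to 0.10 and *Phf19* from -0.15 to 0.30, and at day 6 *Ezh2* from -0.076 to 0.071, *Eed* from -0.13 to 0.060, *Aebp2* from -0.021 to 0.50 and *Phf1* from -0.37 to 0.12. For the change of the genotype difference *Suz12* ranged from -0.011 to 0.57, *Aebp2* from -0.14 to 0.39 and *Rbbp4* from -0.0084 to 0.092.

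Counts over all tested genes moved too. In wild type over the 6 days 4522 were higher and 2146 lower, against 3181 and 3020 after quantile normalization and 3450 and 3278 after median-of-ratios scaling. In *Pcgf5*-/- cells over the 6 days they were 2898 and 1373, against 1961 and 1734 after quantile normalization. At day 0 38 were higher and 6 lower, against 0 and 3 after quantile normalization, 237 and 45 with a replicate block for each day and 1953 and 518 by the 1.5-fold rule. At day 6 they were 1265 and 932, against 857 and 975 with the chromosome median subtracted, 1163 and 508 with a pseudocount of 0.01, 2043 and 2058 by the 1.5-fold rule and 175 to 1142 higher and 122 to 867 lower without 1 sample. For the change of the genotype difference 177 were higher and 231 lower, against 307 and 225 after quantile normalization, 31 and 55 without an FPKM minimum, 557 and 610 with a replicate block for each day and 4 to 197 higher and 0 to 151 lower without 1 sample. At day 0 leaving out 1 sample gave 0 to 9 higher and 1 to 13 lower.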
